A study of Mus musculus with 6 samples.

Results

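Resident macrophages that lie along the vessels of fat are recognised by a panel of marker genes, here Mrc1, Cd163, Lyve1, Clec10a, Cd209f, Timd4, Folr2, F13a1 and Cbr2. The 9 genes were chosen by name as markers of resident, M2-like adipose macrophages and were matched by symbol to Ensembl identifiers among 22040 genes. All 9 were found and all 9 passed the filter on low counts. RNA was sequenced from mouse white adipose tissue in 3 Rb1 samples, from mice given daily intraperitoneal ginsenoside Rb1, a ginseng saponin, at 14 mg/kg, and in 3 CTR samples, from mice given intraperitoneal saline. The sources used here do not give strain, genotype, sex, age, diet, fat depot or how long treatment lasted, nor whether each replicate was a separate mouse. The p-values therefore rest on a spread between samples that may be technical in part.

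Resident macrophages settle in a tissue and largely maintain themselves there, while other macrophages of obese fat derive from blood monocytes and take on a lipid-handling state marked by Trem2, Cd9 and the integrin gene Itgax. The resident cells line vessels, take up debris, sugars and haemoglobin through scavenger receptors and lectins, and are usually identified by the mannose receptor CD206, which Mrc1 encodes, with CD163, LYVE1, TIM4 and folate receptor beta. Alternative activation by interleukin 4 raises several of the same genes, which is why they are also called M2 markers. Bulk RNA carries no position, so the term perivascular here comes from the panel and not from these samples. In bulk tissue, fewer cells of a type and less RNA per cell cannot be told apart.

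Total counts per sample were 15440339 to 24501446 in the Rb1 group and 19125095 to 23509621 in the CTR group. A gene with 0 counts could thus still have had 0.122 to 0.194 CPM (counts scaled to a common library size), depending on the library, and the 9 genes had between 32 and 6233 counts in every library. Adipocyte genes were abundant throughout, with a summed level of 9998 to 10860 FPKM (the deposited count scaled by gene length and library total) over 14 genes in Rb1 samples and 8524 to 10100 FPKM in CTR samples, as the label white adipose requires. CTR replicate 2 stood apart, with 3.59% of its counts in 18 skeletal muscle genes, against 0.00946% to 0.0569% in the other 5 libraries.

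The RefSeq start sites of 7 of the 9 genes could be matched. The sequences of 3 genes are shown because these have a single listed start close to the annotated one (22 bases inside it for Mrc1). Each line gives the 250 bases before the start on GRCm38.p6, 5′ to 3′ on the gene's strand (plus for all 3), with capitals marking GAGGAA, the core bound by the myeloid factor PU.1, and TGCTGA, the core of the MAF recognition element, on either strand.
Mrc1, chr2:14229164-14229413: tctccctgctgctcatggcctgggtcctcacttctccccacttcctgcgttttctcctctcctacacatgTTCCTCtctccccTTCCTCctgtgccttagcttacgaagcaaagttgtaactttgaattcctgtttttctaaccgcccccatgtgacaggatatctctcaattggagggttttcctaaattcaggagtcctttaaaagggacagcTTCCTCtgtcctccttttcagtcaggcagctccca
Cd163, chr6:124304401-124304650: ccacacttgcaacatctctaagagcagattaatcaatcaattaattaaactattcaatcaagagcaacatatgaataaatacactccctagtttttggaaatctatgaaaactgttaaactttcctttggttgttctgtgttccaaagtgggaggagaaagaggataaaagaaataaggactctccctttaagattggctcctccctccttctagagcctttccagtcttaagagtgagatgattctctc
Timd4, chr11:46810549-46810798: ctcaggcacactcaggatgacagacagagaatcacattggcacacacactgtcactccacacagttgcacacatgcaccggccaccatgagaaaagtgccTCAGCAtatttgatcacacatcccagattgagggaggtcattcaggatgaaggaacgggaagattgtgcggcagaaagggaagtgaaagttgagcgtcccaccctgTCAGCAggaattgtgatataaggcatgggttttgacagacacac
The Mrc1 sequence holds 3 GAGGAA matches, which begin 180, 167 and 35 bases before the start, and no TGCTGA. The Timd4 sequence holds 2 TGCTGA matches, 150 and 44 bases before the start, and no GAGGAA. The Cd163 sequence holds neither of these letter strings. The 7 genes have 9 listed starts, of which 3 hold GAGGAA (in Mrc1, F13a1 and Cbr2), against 23.3% of 32851 mouse start-site sequences of the same length. TGCTGA is found before 3 of the 9 starts (1 of Timd4 and both of Folr2), against 16.1% of all. The STAT6 site is found before 0 of the 9 and before 5.85% of all. Both strands were searched and no 2 matches of different motifs overlapped. These matches are a description of letters in this window and say nothing of binding.

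None of the 9 genes passed the test for a difference between Rb1 and CTR fat. In edgeR 0 of 9 passed an adjusted p of 0.05, in a comparison that called 0.00710% of 14093 genes. At an unadjusted p under 0.05 the count was again 0 of 9, against 11.6% of all genes, and DESeq2 called 0 of 9, against 2.77% of all genes. Log2 fold changes of Rb1 over CTR ran from -0.49 for Timd4 to 0.34 for Cbr2, with a median of -0.05 beside 0.01 over all genes tested. Negative values were found for 5 genes and positive values for 4. With scaling by library total, the Rb1 and CTR values overlapped for 8 of the 9, and groups that do not overlap were seen for 16.0% of all genes. A p that misses the threshold does not show that the levels are alike, and the 95% intervals given below state which differences the 6 samples leave possible.

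**Figure D1:**
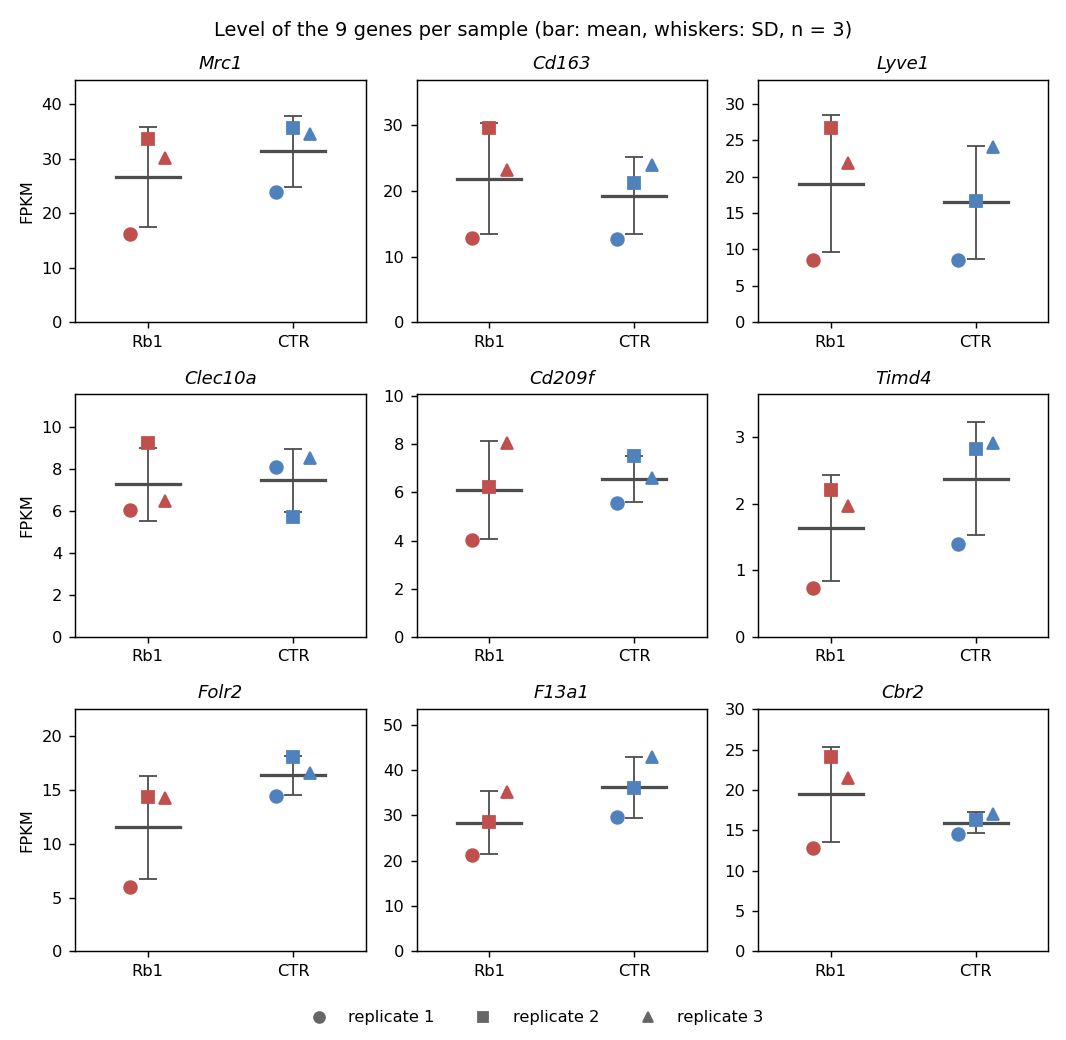
Level of each of the 9 genes in FPKM (vertical axes, from 0) in the 3 Rb1 samples (red) and 3 CTR samples (blue), with symbols for replicate numbers, a bar for the mean and whiskers for the SD. Replicate 1 (circles) is the lowest sample of the Rb1 group for all 9 genes, and the groups overlap for every gene except Folr2.

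Among the endocytic receptors, Mrc1 encodes the mannose receptor, which takes up glycoproteins with mannose or sulphated sugars. It stood at 16.3, 33.6 and 30.2 FPKM in Rb1 replicates 1, 2 and 3, and at 23.9, 35.6 and 34.6 FPKM in CTR replicates 1, 2 and 3. The lowest value of each group was that of replicate 1, and the other 4 libraries lay close together across the groups. Its mean was 26.7 ± 9.21 FPKM with Rb1 and 31.4 ± 6.50 FPKM in CTR samples (SD, n = 3 each). The log2 fold change was -0.18, with a 95% interval of -0.95 to 0.59 (edgeR adjusted p = 0.882). The gene spans positions 14229392 to 14332057 of chromosome 2 (plus strand) of GRCm38.

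Cd163 encodes the receptor that clears haemoglobin bound to haptoglobin. Its level was 12.9, 29.6 and 23.2 FPKM in Rb1 replicates 1, 2 and 3, and 12.6, 21.3 and 23.9 FPKM in CTR replicates 1, 2 and 3. Both replicates numbered 1 were near 13 FPKM, and all other libraries were above 21 FPKM. The log2 fold change was 0.23, with an interval of -0.67 to 1.13 (edgeR adjusted p = 0.870), and it took values from -0.08 without Rb1 replicate 2 to 0.53 without Rb1 replicate 1. Cd163 spans positions 124304656 to 124330527 of chromosome 6 (plus strand).

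Lyve1, the hyaluronan receptor shared by vessel-lining macrophages and lymphatic endothelium, varied most within groups. It stood at 8.56, 26.7 and 21.9 FPKM in Rb1 replicates 1, 2 and 3, and at 8.57, 16.7 and 24.1 FPKM in CTR replicates 1, 2 and 3. The highest library exceeded the lowest 3.12-fold among Rb1 samples and 2.81-fold among CTR samples, while the group means differed by a log2 value of 0.26 (interval -0.98 to 1.49, edgeR adjusted p = 0.898). Lyve1 spans positions 110850607 to 110863239 of chromosome 7 (minus strand).

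Lymphatic endothelial markers moved partly with Lyve1. The median of 10 tested lymphatic genes, as log2 CPM relative to each gene's mean over the 6 samples, was -0.47, 0.68 and -0.09 in Rb1 replicates 1, 2 and 3 and -0.44, -0.05 and 0.24 in CTR replicates 1, 2 and 3, and Lyve1 itself had -0.97, 0.79 and 0.51 in the Rb1 samples and -0.98, 0.05 and 0.61 in the CTR samples. Prox1, the factor that defines lymphatic endothelium, was at 0.127 to 0.491 FPKM in Rb1 samples and 0.108 to 0.269 FPKM in CTR samples. The summed level of the 11 lymphatic genes was 40.9 to 56.1 FPKM with Rb1 and 45.1 to 46.2 FPKM in CTR samples. Among these genes, Stab1 is also in the wider resident macrophage list described further on, so the list is not one of lymphatic cells alone. The part of lymphatic cells in the Lyve1 values was not tested.

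Clec10a and Cd209f are C-type lectins, for galactose-type sugars in the case of Clec10a and related to DC-SIGN in the case of Cd209f. Clec10a was the steadiest of the 9 genes, at 6.04, 9.25 and 6.50 FPKM in Rb1 replicates 1, 2 and 3, and 8.12, 5.73 and 8.54 FPKM in CTR replicates 1, 2 and 3. No order of groups was visible, and the log2 fold change was 0.01 (interval -0.54 to 0.56, edgeR adjusted p = 0.993). Cd209f stood at 4.004, 6.23 and 8.07 FPKM in Rb1 replicates 1, 2 and 3, and at 5.57, 7.51 and 6.61 FPKM in CTR replicates 1, 2 and 3. Replicate 1 was again the lowest of each group, and the log2 fold change was -0.05 (interval -0.73 to 0.62, adjusted p = 0.969). Clec10a lies on chromosome 11 from 70156197 to 70170834 (plus strand) and Cd209f on chromosome 8 from 4102787 to 4105835 (minus strand). No source used here says how reads shared by near-identical genes were handled, so Clec10a beside its paralogue Mgl2, and Cd209f beside the other Cd209 genes, are uncertain to that extent.

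Timd4 encodes TIM4, which binds phosphatidylserine on dying cells, and was the least abundant of the 9. Its level was 0.728, 2.21 and 1.97 FPKM in Rb1 replicates 1, 2 and 3 (32, 74 and 105 counts), and 1.396, 2.82 and 2.92 FPKM in CTR replicates 1, 2 and 3 (58, 144 and 128 counts). CTR replicates 2 and 3 were the 2 highest libraries and Rb1 replicate 1 the lowest, but CTR replicate 1 lay below Rb1 replicates 2 and 3. The log2 fold change of -0.49 had the lowest value of the panel and a wide interval of -1.66 to 0.67 (edgeR adjusted p = 0.766), and it was -0.12 without Rb1 replicate 1 and -0.78 without CTR replicate 1 or Rb1 replicate 2. Timd4 spans positions 46810800 to 46844332 of chromosome 11 (plus strand). Large macrophages of the peritoneal cavity also make Timd4, and the 12 genes listed for them had a summed level of 65.7 to 71.7 FPKM in Rb1 samples and 86.0 to 95.1 FPKM in CTR samples. Most of that sum was Lbp, at 48.0 ± 11.0 FPKM in Rb1 samples and 73.9 ± 5.05 FPKM in CTR samples (SD, n = 3 each), while 6 of the 11 tested genes had positive and 5 negative log2 fold changes, with a median of 0.19 (-0.36 without Rb1 replicate 1). Of their markers, Alox15 stood at 3.23 FPKM in Rb1 replicate 1, the library lowest in Timd4, and at 0.127 to 0.540 FPKM in the other 5, and the part of these cells was not tested.

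Folr2, which encodes folate receptor beta, was the 1 gene of the panel whose FPKM groups did not overlap. It stood at 6.02, 14.4 and 14.3 FPKM in Rb1 replicates 1, 2 and 3, and at 14.5, 18.0 and 16.6 FPKM in CTR replicates 1, 2 and 3. The highest Rb1 value and the lowest CTR value were almost equal, and the distance between the means came largely from Rb1 replicate 1. With scaling by library total, groups with Rb1 wholly below CTR were seen for 10.5% of all genes. After the TMM scaling used in edgeR the Folr2 groups overlapped. Relative to the gene's mean log2 CPM, Rb1 replicates 2 and 3 were then at 0.18 and 0.17, and CTR replicate 1 at 0.05. The log2 fold change was -0.44 (interval -1.27 to 0.38, edgeR adjusted p = 0.688), and -0.11 without Rb1 replicate 1. Folr2 spans positions 101839988 to 101857194 of chromosome 7 (minus strand), and its exons overlap the predicted gene Gm10602.

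The other 2 genes encode enzymes. F13a1, the A subunit of coagulation factor XIII, which cross-links fibrin, was the most abundant of the 9, at 21.3, 28.5 and 35.2 FPKM in Rb1 replicates 1, 2 and 3 and 29.5, 36.1 and 42.8 FPKM in CTR replicates 1, 2 and 3. The CTR mean was higher, with overlap, and the log2 fold change was -0.30 (interval -0.90 to 0.29, edgeR adjusted p = 0.703). It was -0.10 without Rb1 replicate 1 and -0.15 without CTR replicate 3. Megakaryocytes and platelets also make F13a1, and the 10 genes listed for them had a summed level of 14.9 to 20.4 FPKM in Rb1 samples and 16.3 to 20.5 FPKM in CTR samples. Most of that sum was Pf4, which resident macrophages express as well, at 12.7 to 18.6 FPKM in Rb1 samples and 15.1 to 19.3 FPKM in CTR samples. The platelet chemokine gene Ppbp had the smallest p of the list, with 0.697 ± 0.271 FPKM in Rb1 samples and 0.282 ± 0.149 FPKM in CTR samples (SD, n = 3 each), a value of 1.33 as log2 fold change (edgeR adjusted p = 0.396). Gp9 had 0 to 4 counts and Gp6 0 to 5 counts per library, and the part of these cells in the F13a1 values was not tested. F13a1 spans positions 36867178 to 37050244 of chromosome 13 (minus strand), and its exons overlap the predicted gene Gm30489.

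Cbr2, a carbonyl reductase, had the largest positive value. It stood at 12.9, 24.1 and 21.5 FPKM in Rb1 replicates 1, 2 and 3, and at 14.6, 16.2 and 17.1 FPKM in CTR replicates 1, 2 and 3. Rb1 replicates 2 and 3 lay above all CTR samples and Rb1 replicate 1 below them all. The log2 fold change was 0.34 (interval -0.28 to 0.95, edgeR adjusted p = 0.681), and 0.59 without Rb1 replicate 1. Lung is the other well-known source of Cbr2, and 3 of the 6 listed lung genes, Sftpc, Sftpb and Scgb3a2, had 0 counts in all 6 libraries. The surfactant gene Sftpa1 of the same list was at 0.141 ± 0.124 FPKM in Rb1 samples and 0.212 ± 0.0786 FPKM in CTR samples (SD, n = 3 each). The summed level of the 6 lung genes, to which the club cell gene Cyp2f2 gave the most in every library, was 0.657, 7.12 and 3.20 FPKM in Rb1 replicates 1, 2 and 3 and 0.864, 0.741 and 2.13 FPKM in CTR replicates 1, 2 and 3, highest in the library highest in Cbr2, and its part was not tested. Cbr2 spans positions 120729489 to 120732114 of chromosome 11 (minus strand).

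**Figure D2:**
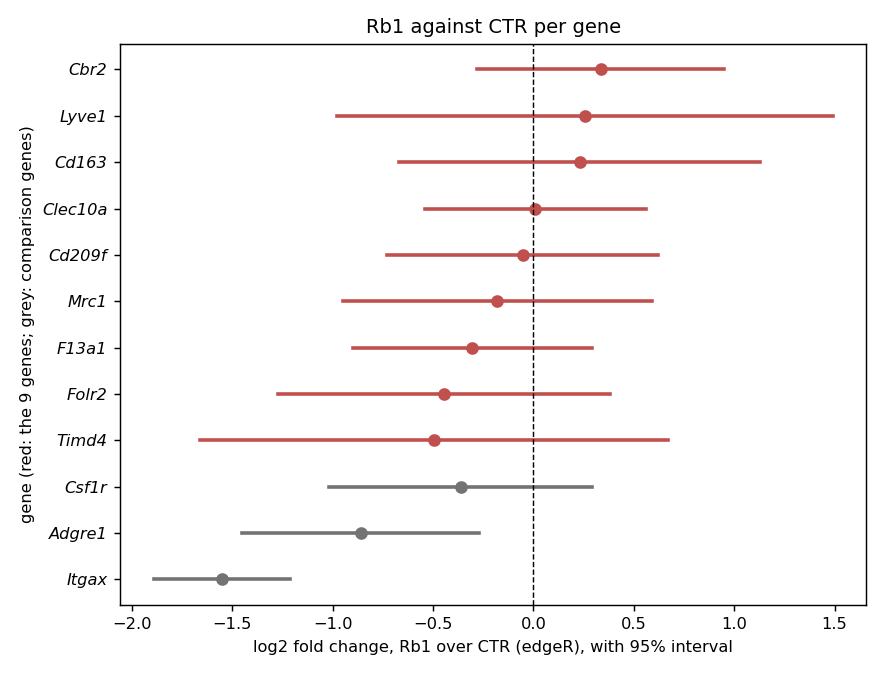
Log2 fold change of Rb1 over CTR from edgeR (horizontal axis) with its 95% interval, not adjusted for the number of genes, for the 9 genes (red) and for Csf1r, Adgre1 and Itgax (grey). All 9 intervals cross 0, whereas those of Adgre1 (-1.45 to -0.27) and Itgax (-1.89 to -1.21) lie below it, although neither gene passed in edgeR after adjustment over all genes.

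By mean level per length over the 6 samples, F13a1 (32.2 FPKM) and Mrc1 (29.0 FPKM) came first, followed by Cd163 (20.6), Lyve1 (17.8), Cbr2 (17.7), Folr2 (14.0), Clec10a (7.36), Cd209f (6.33) and Timd4 (2.01 FPKM). Mrc1 was above Cd163 and Cd209f above Timd4 in 6 of 6 samples. The neighbours Lyve1 and Cbr2, and likewise Clec10a and Cd209f, were in the stated order in 4 of 6 samples, and their ranges overlapped.

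The larger part of the variation of these genes lay between libraries of the same group. Rb1 replicate 1 was the lowest of the 6 libraries for 7 of the 9 genes and among the 2 lowest for all 9, and CTR replicate 1 was among the 2 lowest for 6. Summed over the 9 genes, the level was 88.6, 175 and 163 FPKM in Rb1 replicates 1, 2 and 3, and 119, 160 and 177 FPKM in CTR replicates 1, 2 and 3. The within-group SD on the log2 CPM scale had a median of 0.52 over the 9 genes, from 0.35 for Clec10a to 0.88 for Lyve1, beside a median of 0.21 over all genes tested and 0.18 over the 10762 genes within the panel's range of mean level. The mean profile of the 9 genes, as log2 CPM relative to each gene's own mean, was -0.79, 0.36 and 0.25 in Rb1 replicates 1, 2 and 3 and -0.34, 0.17 and 0.35 in CTR replicates 1, 2 and 3. Mrc1 lay closest to it, with a root mean square difference of 0.08, and Lyve1 and Clec10a farthest, with 0.36 each.

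**Figure D3:**
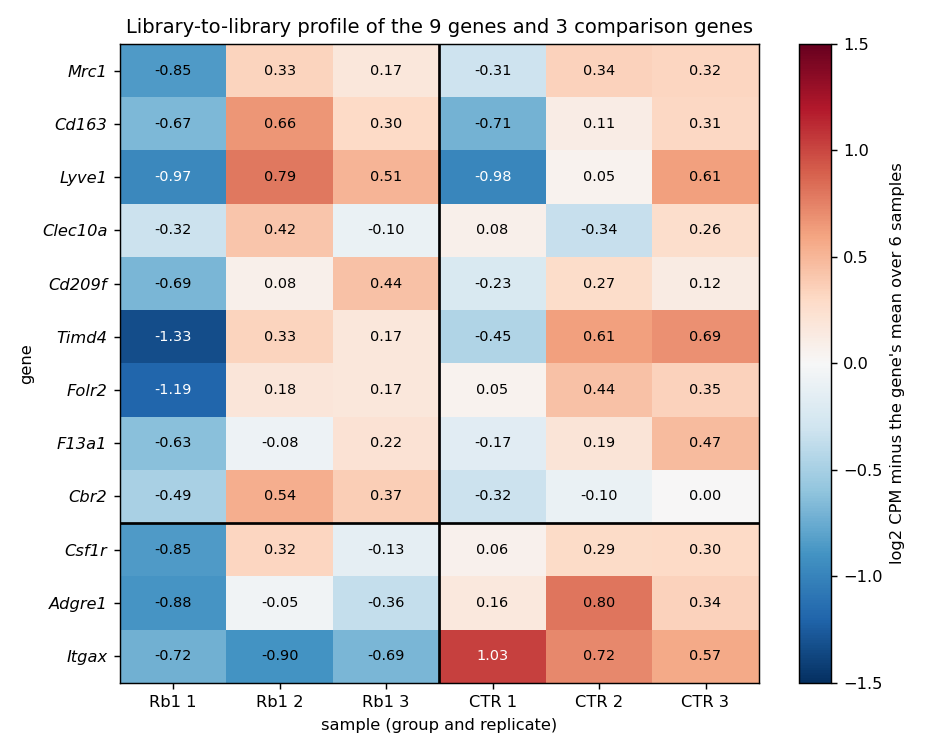
Log2 CPM of each gene minus its mean over the 6 samples (colour and printed values), with the 3 Rb1 samples left of the 3 CTR samples, the 9 genes above the line and Csf1r, Adgre1 and Itgax below it. The 9 genes are low in Rb1 replicate 1, from -1.33 for Timd4 to -0.32 for Clec10a, and are not ordered by group, whereas Itgax is between -0.90 and -0.69 in all Rb1 samples and between 0.57 and 1.03 in all CTR samples.

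Markers of other stromal cells also set Rb1 replicate 1 apart. The 10 fibroblast and progenitor genes had a summed level of 697 FPKM there, against 1606 and 1497 FPKM in Rb1 replicates 2 and 3 and 1094, 1284 and 1289 FPKM in CTR replicates 1, 2 and 3, and none of the 10 was at 0. The 12 blood vessel endothelial genes ran the other way, at 724 FPKM in Rb1 replicate 1, 396 and 473 FPKM in Rb1 replicates 2 and 3, and 412 to 477 FPKM in CTR samples. The part of these differences in tissue make-up in the level of the 9 genes was not tested. Without Rb1 replicate 1, the median log2 fold change of the panel was 0.16, with 0 panel genes called in edgeR (0.0210% of all genes) and 1, Cbr2, at an unadjusted p under 0.05 (12.0% of all genes). Without CTR replicate 2, the library with muscle transcripts, it was -0.07, again with 0 panel genes called (0.00703% of all genes).

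The genes with the most similar profiles over the 6 samples were sought among 2063 candidates with a mean of at least 1 CPM and at least as much variation as the panel's mean profile, by the root mean square difference on the log2 scale. They were Cldn10 (0.092), the complement gene C3 (0.124), Kif19a (0.140), the transporter gene Abca9 (0.143), Cspg4 (0.159), Fam19a5 (0.161), the macrophage lectin Mgl2 (0.164) and the basement membrane collagen Col4a4 (0.165). C3 stood at 111, 255 and 183 FPKM in Rb1 replicates 1, 2 and 3 and at 143, 219 and 215 FPKM in CTR replicates 1, 2 and 3, and Mgl2 at 6.76, 15.2 and 10.4 FPKM in the Rb1 samples and 7.79, 11.0 and 11.8 FPKM in the CTR samples. None of the 8 passed in edgeR, with log2 fold changes between -0.23 (Kif19a) and 0.13 (Mgl2). The genes were selected for this likeness, so it is a description with 6 points per gene.

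General macrophage genes mostly had lower values with Rb1. Of 20 such genes 19 had negative log2 fold changes, with a median of -0.77 (-0.57 without CTR replicate 2, -0.60 without Rb1 replicate 1). With scaling by library total, 17 of the 20 had all Rb1 samples below all CTR samples, against 10.5% of all genes. In edgeR 0 of the 20 passed over all genes, and DESeq2 called 11 lower and 0 higher. Adgre1, which encodes F4/80, the antigen most used to count mouse macrophages, was at 13.6, 22.1 and 17.9 FPKM in Rb1 replicates 1, 2 and 3 and at 28.3, 42.1 and 29.99 FPKM in CTR replicates 1, 2 and 3. Its log2 fold change was -0.86 (SE 0.25, edgeR adjusted p = 0.286, DESeq2 adjusted p = 0.0413). Ctss, a lysosomal protease (-1.15), Cybb, a subunit of the phagocyte oxidase (-0.93), and Spi1, which encodes PU.1 (-0.86), had the smallest p-values of the list, with edgeR adjusted p of 0.136, 0.136 and 0.167. Csf1r, the receptor for the growth factor of macrophages, was at 21.9, 45.2 and 33.1 FPKM in Rb1 replicates 1, 2 and 3 and 41.6, 46.4 and 45.8 FPKM in CTR replicates 1, 2 and 3, with overlap (log2 fold change -0.36, edgeR adjusted p = 0.680, and -0.10 without Rb1 replicate 1).

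The median was -0.51 for 20 lipid-associated macrophage genes, of which 17 had negative values. Rb1 lay wholly below CTR for 13 of the 20, against 10.5% of all genes. The median was -0.58 without CTR replicate 2 and -0.55 without Rb1 replicate 1, and edgeR called 0 while DESeq2 called 10 lower and 0 higher. Itgax, the CD11c gene, stood at 5.06, 4.09 and 4.76 FPKM in Rb1 replicates 1, 2 and 3 and at 17.3, 13.2 and 11.7 FPKM in CTR replicates 1, 2 and 3 (log2 fold change -1.55, edgeR adjusted p = 0.0744, DESeq2 adjusted p = 2.764e-15). No Rb1 value reached 6 FPKM and no CTR value lay below 11 FPKM. The 34 tested genes of a wider resident macrophage list had a median of -0.07, close to the panel's, with 14 positive and 20 negative, and 0 called by edgeR or DESeq2. That list had 4 genes with Rb1 wholly above CTR and 3 wholly below, and 16.0% of all genes separated in either direction. Its members with the smallest p were the co-receptor Nrp1 (0.43, edgeR adjusted p = 0.309), the scavenger receptor Colec12 (-0.32, 0.402) and the growth factor Igf1 (-0.29, 0.424), and many genes of that list are also made by other cells of fat. The lists were compared by these values only, and no test of the difference between lists was made.

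**Figure D4:**
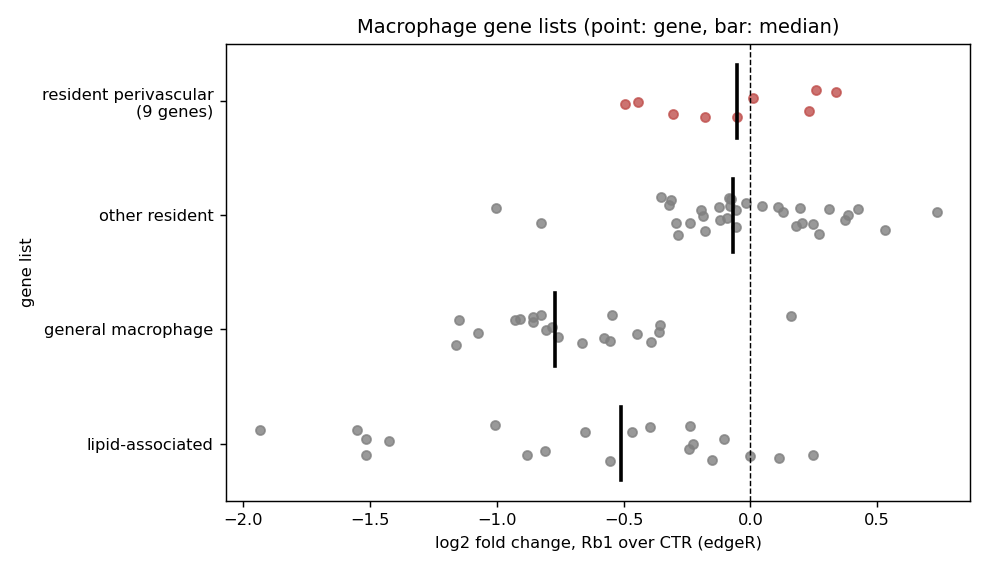
Log2 fold change of Rb1 over CTR from edgeR (horizontal axis) for every tested gene of 4 macrophage lists, with a bar at each median. The resident perivascular panel and the wider resident list centre near 0 (medians -0.05 and -0.07), and the general and lipid-associated lists centre at -0.77 and -0.51.

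Per unit of Adgre1, the panel's values were near those of other genes. The ratio of FPKM values to Adgre1 had a higher mean log2 value in Rb1 samples for all 9 genes, by a median of 0.76, but also for 95.4% of 14010 genes, by a median of 0.87, since the denominator was lower with Rb1. For 5 genes (Mrc1, Cd163, Clec10a, Cd209f and Cbr2) every Rb1 ratio lay above every CTR ratio, as for 59.3% of all genes. The ratios are therefore given as a description of how the panel stood beside F4/80 in each library. For Cbr2 the ratio was 0.947, 1.09 and 1.20 in Rb1 replicates 1, 2 and 3 and 0.517, 0.386 and 0.569 in CTR replicates 1, 2 and 3, a log2 difference of 1.15. Cd163 had ratios of 0.948, 1.34 and 1.30 in the Rb1 samples against 0.447, 0.506 and 0.798 in the CTR samples, a log2 difference of 1.06. In each case the Rb1 library that was low in level, replicate 1, was also low in Adgre1.

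For Mrc1 the ratio was 1.20, 1.52 and 1.69 in Rb1 replicates 1, 2 and 3 and 0.844, 0.846 and 1.15 in CTR replicates 1, 2 and 3, a log2 difference of 0.63 with a narrow gap between the groups. The 5 genes each gave an exact two-sided permutation p of 0.1, which is the smallest that 3 samples against 3 allow, so none of the 9 ratios could pass a threshold of 0.05. Lyve1 (log2 difference 1.09, exact permutation p = 0.2), F13a1 (0.55, exact permutation p = 0.2), Folr2 (0.31, exact permutation p = 0.3) and Timd4 (0.29, exact permutation p = 0.5) had overlapping ratios. All 9 ratios share the same denominator, whose lower level with Rb1 was known beforehand, so they are not independent of each other or of the Adgre1 difference. With Csf1r as the denominator the median difference was 0.32, against 0.44 over all genes, Cd163, Clec10a and Cbr2 had wholly separate groups, as 16.1% of all genes did, and Timd4 (-0.14) and Folr2 (-0.13) took negative values.

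**Figure D5:**
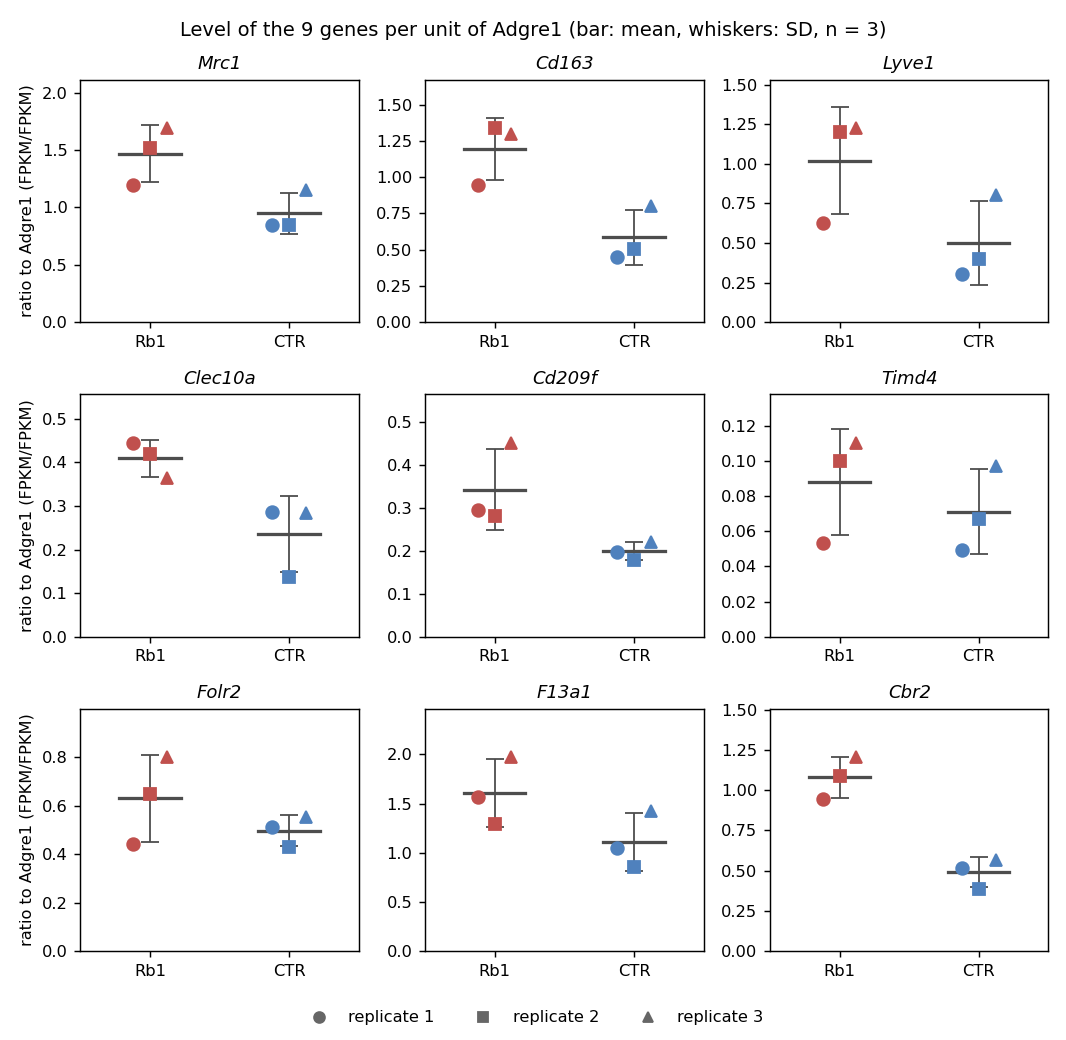
Ratio of each gene's FPKM to that of Adgre1 (vertical axes, from 0) in the 3 Rb1 samples (red) and 3 CTR samples (blue), with symbols for replicate numbers, a bar for the mean and whiskers for the SD. Every Rb1 point lies above every CTR point for Mrc1, Cd163, Clec10a, Cd209f and Cbr2, and the groups overlap for Lyve1, Timd4, Folr2 and F13a1, in a measure in which 59.3% of all genes separate the same way.

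Relatives of the panel were not uniform in their values. Of 25 tested relatives, 14 had positive and 11 negative log2 fold changes with a median of 0.07 (0.14 without Rb1 replicate 1), and edgeR called 0 while DESeq2 called 2 lower. Those 2 were Mrc2, the mannose receptor paralogue that takes up collagen, and Cd44, a hyaluronan receptor. Mrc2 was at 18.4 ± 0.824 FPKM in Rb1 samples and 33.3 ± 7.29 FPKM in CTR samples (SD, n = 3 each), with a fold change of -0.81 on the log2 scale (edgeR adjusted p = 0.194, DESeq2 adjusted p = 0.001191). Cd44 was at 4.10 ± 0.438 FPKM in Rb1 samples and 6.89 ± 1.20 FPKM in CTR samples (-0.70, edgeR adjusted p = 0.174). Havcr2, which encodes TIM3, a relative of TIM4, was at 0.329 ± 0.0292 FPKM with Rb1 and 0.676 ± 0.266 FPKM in CTR samples (-0.997, edgeR adjusted p = 0.318). Cd209d, a neighbour of Cd209f in its gene cluster, was at 10.25, 10.05 and 14.55 FPKM in Rb1 replicates 1, 2 and 3 and 8.51, 9.51 and 9.51 FPKM in CTR replicates 1, 2 and 3 (0.39, edgeR adjusted p = 0.524).

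Around Cd163, the haemoglobin and iron list had 19 tested genes, 6 positive and 13 negative, with a median of -0.16, and edgeR called 0 and DESeq2 1. That gene was Hp, which encodes haptoglobin, the plasma protein whose complex with haemoglobin CD163 binds and which fat cells also make. Hp stood at 331, 501 and 513 FPKM in Rb1 replicates 1, 2 and 3 and at 1127, 738 and 980 FPKM in CTR replicates 1, 2 and 3, so that no Rb1 value reached the lowest CTR value. Its log2 fold change was -1.02 (SE 0.25, edgeR adjusted p = 0.230, DESeq2 adjusted p = 0.003231). Hmox1, the haem-degrading enzyme, was at 27.5 ± 2.76 FPKM in Rb1 samples and 34.4 ± 5.35 FPKM in CTR samples (SD, n = 3 each, -0.27, edgeR adjusted p = 0.461). Tfrc, the transferrin receptor (-0.47, adjusted p = 0.242), and Slc11a1, a phagosomal metal transporter (-0.58, adjusted p = 0.276), did not pass in edgeR or DESeq2. Transcripts of red blood cells were higher with Rb1 in value, with a summed level of 388 to 615 FPKM over 7 genes in Rb1 samples and 226 to 386 FPKM in CTR samples, and their part in the values of this list was not tested.

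The interleukin 4 and M2 programme had a median of -0.02 over 20 tested genes (-0.15 without Rb1 replicate 1), 10 positive and 10 negative, with 0 called by edgeR or DESeq2. Its most abundant member, Retnla, an alternative-activation gene that fat expresses strongly, was at 186 ± 43.3 FPKM in Rb1 samples and 234 ± 55.1 FPKM in CTR samples (SD, n = 3 each), with a fold change of -0.29 on the log2 scale (edgeR adjusted p = 0.736). The receptor chain Il2rg (-0.44, adjusted p = 0.357), the transglutaminase Tgm2 (0.24, 0.435) and the ribonuclease Ear2 (-0.47, 0.492) had its smallest p-values. Of the growth factors that maintain macrophages, Il34 was at 5.23 ± 0.641 FPKM with Rb1 and 4.16 ± 0.395 FPKM in CTR samples (0.37, edgeR adjusted p = 0.436). Csf2ra, a receptor chain for granulocyte-macrophage colony-stimulating factor, was at 11.07, 11.91 and 11.15 FPKM in Rb1 replicates 1, 2 and 3 and 29.5, 24.9 and 18.2 FPKM in CTR replicates 1, 2 and 3 (-1.04, edgeR adjusted p = 0.148, DESeq2 adjusted p = 5.564e-05). It was the 1 of 5 tested genes of that growth factor list called by DESeq2, and edgeR called 0. The list had 3 positive and 2 negative values, with a median of 0.04 (0.12 without CTR replicate 2, -0.10 without Rb1 replicate 1). Among 11 tested hyaluronan genes, the median was -0.19 (without Rb1 replicate 1 it was -0.03, and without CTR replicate 2 it was -0.07), edgeR called 0, and DESeq2 called Hmmr (-1.40) and Cd44 lower.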

How the data were processed

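Raw read counts and FPKM values for each Ensembl gene in every sample were deposited by the authors in one table. Dividing counts by library totals and FPKM gave the same gene length in all samples, within a relative spread of 0.00984% over 13169 genes. Per the submitters' processing notes, the tools included TopHat2 2.0.6 and CASAVA 1.8, with build mm10. The sources used here do not state the counting tool, annotation release or strand setting, so reads cannot be assigned between overlapping genes. Folr2, F13a1, Csf1r, Nrp1, Prox1, Il2rg, Il34, Tgm2, Dusp1 and Fn1 share exon positions with another annotated gene.

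Symbols were found for 21933 of 22040 identifiers, and coordinates came from GENCODE M21 on GRCm38, which mm10 denotes. Start-site sequences are from RefSeq on GRCm38.p6. Counts were tested with edgeR 4.0.16 in R 4.3.3 (TMM, the default filterByExpr settings, a quasi-likelihood test of Rb1 against CTR with no covariates) in 14093 genes, and p-values were adjusted by Benjamini-Hochberg with 0.05 as the threshold. The quasi-likelihood F statistic gave the standard errors and intervals. DESeq2 1.42.0 was an alternative. Levels are FPKM, and ratios to Adgre1 were tested by exact permutation of samples and set beside the same ratio of every tested gene above 0 in all samples. Profiles used log2 CPM after TMM with a prior count of 2. Every pair of libraries differed beyond sampling noise (chi-square per degree of freedom of 30.38 or more). The script was tested on simulated counts.

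The members and the 24 lists beside them were chosen with earlier results of these data known. The text names all members, Adgre1, Itgax and Csf1r, up to 3 genes of each list with the smallest p and its most abundant gene, and the 8 genes with the most similar profile. Further genes named were chosen after their values were seen: Cd209d, Hmox1, Alox15, Gp6, Gp9, Prox1, Cyp2f2 and the lung genes at 0. Some genes under this rule appear only in the counts of their list, and Stab1 is named only as a gene shared by lists. Alternatives were other scalings, no expression filter, DESeq2, a replicate block, other denominators and leaving out each library.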

Additional observations from a re-analysis of the deposited data

How the results depend on the processing

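The count of called panel genes was 0 under every alternative run: DESeq2 size factors, total-count scaling, no expression filter, DESeq2's test, a replicate block and leaving out each library. Over all genes, DESeq2 called 83 higher and 307 lower, and 34 of the genes in the lists beside the panel, against 1, 0 and 0 in edgeR. Leaving out 1 library moved the genes called higher between 1 and 2, those called lower between 0 and 2, the panel genes with separate groups between 1 and 4, and the median log2 fold change of the panel between -0.29 and 0.16. The count of 4 came without CTR replicate 1. The share of all genes with separate groups was 16.0% with all 6 samples and is not given for these runs. Smaller groups separate more readily, so these counts are not read as a result about the panel. Signs turned for the values nearest 0: leaving out 1 library gave -0.41 to 0.10 for Mrc1, -0.08 to 0.53 for Cd163, -0.09 to 0.66 for Lyve1, -0.23 to 0.16 for Clec10a and -0.33 to 0.21 for Cd209f. Total-count scaling gave -0.04 for Clec10a, and the cause was not tested. For the ratios to Adgre1, the median difference was 0.54 to 0.85 without 1 library. Separate groups were counted for 5 to 8 genes, the 8 without Rb1 replicate 1. The share of all genes was 59.3% with all 6 samples and is not given without 1 library, so these counts have the same limit. With other denominators, separate groups were counted for 3 genes with Csf1r, 3 with Cd68 and 2 with the mean of 20 general macrophage genes (16.1%, 76.2% and 67.2% of all genes), and Csf1r lowered the median difference to 0.32, with -0.14 for Timd4 and -0.13 for Folr2. The cause was not tested.

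Over all genes tested, deviations from the group means had correlations of 0.136, -0.109 and 0.018 between samples numbered 1, 2 and 3. Between differently numbered samples of the groups the correlations ran from -0.265 to 0.262, so the same-numbered ones did not stand out. The numbers are therefore not taken as pairs, although the panel's mean profile was low in both replicates numbered 1 (-0.79 for Rb1 and -0.34 for CTR). A replicate block left 0 panel genes called, gave a panel median of -0.11 and turned Clec10a to -0.01. For 32 to 144 counts per library, as for Timd4, depth adds to the spread between samples.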

Other observations

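Lists of other cells in the tissue were described in the same way, and edgeR called 0 genes in each. Monocyte genes had a median log2 fold change of -0.35 over 12 tested genes, and -0.60 without Rb1 replicate 1 (DESeq2 called 1 lower, Nr4a1, an immediate early gene that patrolling monocytes need), and dendritic cell genes -0.52 over 14, and -0.20 without CTR replicate 2, with the transcription factor gene Irf8 (-0.96) and Wdfy4 (-0.61), needed for cross-presentation, called lower by DESeq2. Fn1, the most abundant gene of the monocyte list, was at 0.06. All 12 blood vessel endothelial genes had positive values, with a median of 0.25. The highest was Kdr, a receptor for vascular endothelial growth factor (0.56), and the smallest p was that of the angiopoietin receptor gene Tek, at 21.5 ± 2.79 FPKM in Rb1 samples and 16.9 ± 0.535 FPKM in CTR samples (SD, n = 3 each), with a fold change of 0.38 on the log2 scale (edgeR adjusted p = 0.269). Without Rb1 replicate 1 that median was 0.06. Pericyte and smooth muscle genes had a median of 0.18 (0.27 without Rb1 replicate 1 and 0.29 without CTR replicate 2) and adipocyte genes 0.23. Without Rb1 replicate 1 the median of fibroblast and progenitor genes was 0.42, against 0.09 with it, and that of lymphatic endothelial genes 0.41, against 0.18 with it.

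The adipocyte list contained Aqp7, the glycerol channel, called higher by DESeq2 (0.66, adjusted p = 0.01641). Red blood cell genes had a median of 0.70, with Hba-a1 called higher by DESeq2 (0.87, adjusted p = 0.02389). Immediate early genes had a median of -0.80, and DESeq2 called 3 of the 10 lower, Atf3, Dusp1 and Nr4a1. Leaving out Rb1 replicate 1 also moved several small lists: T and B cell genes had a median of -0.87 without it and -0.15 with it, neutrophil and mast cell genes 0.30 and 0.08, platelet genes 0.13 and 0.07, large peritoneal macrophage genes -0.36 and 0.19, and the 3 tested mesothelial genes 0.66 and 0.22. Without CTR replicate 2 the medians were 0.00 for T and B cell genes, 0.21 for platelet genes, 0.34 for mesothelial genes and 0.43 for the 2 tested lung genes, whose median over all samples was 0.74. DESeq2 called 0 genes in these 6 lists. Skeletal muscle genes had a median of -6.25, and -2.17 without CTR replicate 2, with 1 called lower by DESeq2. DESeq2 gave no adjusted p for Ttn, Actn3, Tnnc2 and Acta1 of that list, so its count does not cover every gene.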
